A study of Mus musculus with 24 samples.

Results

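The response of mouse amniotic cells (MACs) to constitutive Akt signalling without the Ets transcription factors was described from 3 libraries of Akt-MACs and 3 libraries of MACs, 6 of the 24 libraries of the series. All 6 came from embryos of E11.5-E13.5, described as C57BL/6J. The methods give the mothers as wild type or tdTomato reporter mice on a C57BL/6 background. Which of these each library came from is not given in the sources used here. MACs are cells of the amniotic fluid grown in culture, and Akt-MACs are MACs that received a lentivirus with a myristoylated, constitutively active Akt. The mouse Akt cDNA stood behind the PGK promoter, and the methods define a replicate as a separately isolated culture from embryos of both sexes. For these RNA-seq libraries no sort is given in the sources used here. The labels do not say whether MACs carried an empty virus, which medium Akt-MACs were grown in, or how long. In the other groups used here, RACVECs are MACs given the Ets factors Fli1, Erg and Etv2 by lentivirus, and Akt-RACVECs are RACVECs with Akt added. By the methods, cells under conversion were grown in endothelial cell (EC) medium with an inhibitor of Tgf-beta signalling and with VEGF-A.

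Akt is a serine/threonine kinase that acts downstream of PI3K and is switched on at the plasma membrane, to which a myristoyl group anchors it permanently. It promotes survival and growth through mTORC1, holds Foxo transcription factors out of the nucleus and favours glycolysis and lipid synthesis. In ECs, active Akt is used to keep primary cells alive in culture. Macrophages arise in the early embryo from the yolk sac, depend on the receptor Csf1r and the Ets factor Pu.1 (Spi1), and populate fetal tissues and fluids.

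Transcripts were summed per gene symbol, which gave 22282 genes, of which 14680 had a mean FPKM (fragments mapped to a transcript, scaled by its length and by the size of the library) of at least 1 over the 6 libraries and were tested. The summed FPKM was 1693322 to 2147794 per library, and 13465 to 14985 genes were above 0. Numbers of reads were not given, so the depth behind a value is unknown and a gene without signal is only said to be listed at 0. The columns of the 3 MAC libraries were named as amniotic cell controls, 1 of them as later, whereas those of the Akt-MACs carried single letters. These names do not state a batch, and no batch of preparation is given in the sources used here. Any such batch and the group cannot be told apart.

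Correlations between libraries of a group overlapped those between the groups. On log2(FPKM + 1), Pearson correlations over the genes tested were 0.820 to 0.860 among MACs and 0.779 to 0.869 among Akt-MACs. Akt-MAC 1 correlated with MAC 3 at 0.904 and with MAC 1 at 0.868, higher than or about as high as with Akt-MAC 2 (0.869) and Akt-MAC 3 (0.779). Akt-MAC 3 reached only 0.737 to 0.745 with the MACs. The libraries were also uneven in sex-linked transcripts. Xist, transcribed from the inactive X chromosome, was at 75.3, 0.27 and 188 in MACs and at 10.5, 117 and 163 in Akt-MACs, and Ddx3y, on the Y chromosome, at 1.61, 154 and 5.37 and at 171, 47.3 and 28.1.

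Akt1, the gene that was transduced, had an FPKM of 692, 551 and 666 in MACs 1 to 3 and of 1118, 1279 and 848 in Akt-MACs 1 to 3. Every Akt-MAC library was above every MAC library, but the rise was moderate, at a log2 fold change of 0.75 (1082 ± 218 against 636 ± 75.0, SD, n = 3 each; limma adjusted p = 0.0848, not called). Transcripts of the mouse cDNA and of the endogenous gene could not be told apart. Akt2 was 132 ± 21.6 in MACs and 151 ± 43.0 in Akt-MACs. Of the factors transduced in the other groups Fli1 was called higher and is described with the endothelial genes, with Etv2 and Erg listed at 0 in all 6 libraries and Sox17 above 0 only in Akt-MAC 2, at 1.53.

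A gene was called at a Benjamini-Hochberg adjusted p below 0.05 in limma and a log2 fold change past 1 or -1. By this rule 435 of 14680 genes (2.96%) were higher in Akt-MACs and 42 (0.286%) were lower. The median over all genes was 0.11. Among the genes that rose were 28 of 33 macrophage markers tested, such as Lyz2, Marco and Adgre1, and they reached very different levels in the 3 libraries. Among the genes that fell were the scavenger receptor Scara5, the homeobox factors Nkx3-2 and Six2, Cdh13, a GPI-anchored cadherin, and Snai1, a repressor of epithelial genes.

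These calls rested on the spread pooled over the 8 groups and on single libraries. With the spread estimated from the 6 libraries alone, 1 gene was called higher and 0 lower (787 and 227 without adjustment, p below 0.05 past the same fold, against 1227 and 356 over all groups). Without Akt-MAC 1, 2 or 3, 746, 92 and 259 genes were called higher and 107, 14 and 15 lower. Without MAC 1, MAC 2 or MAC 3, 250, 176 and 594 were called higher and 38, 46 and 117 lower, and without Akt-RACVEC 1 or 3, which only share the estimate of spread, 26 and 27 were called lower.

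**Figure D1:**
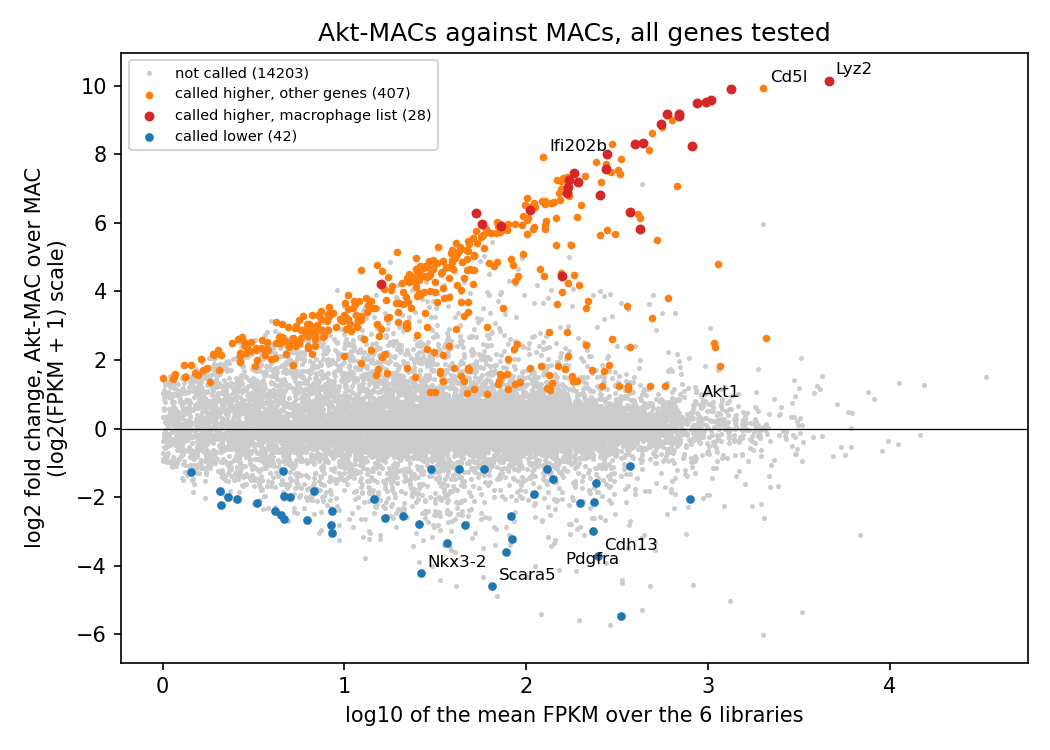
Log2 fold change of Akt-MAC over MAC on the log2(FPKM + 1) scale against the log10 of the mean FPKM over the 6 libraries, 1 point per gene tested. The 28 called macrophage markers (red) follow the upper edge, where genes listed at 0 in MACs lie, among 407 other genes called higher (orange), with 42 called lower (blue).

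The macrophage markers were the clearest group. Of 37 listed, 35 were measured and 33 tested. Of these 28 were called higher and 0 lower, against 2.96% of all genes, and in 30 every Akt-MAC library lay above every MAC library, against 11.1% of all genes. In the MACs 23 of the 35 were listed at 0 in every library, and these include most of the genes that define the lineage. Genes at 0 in every MAC could pass the filter only through the Akt-MACs and could not be called lower. For them any value above 0 in each Akt-MAC library separates the groups. The shares of all genes are therefore no like comparison, and the counts only describe the list.

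Ptprc, which encodes the pan-leukocyte phosphatase CD45, was listed at 0 in all MACs and had an FPKM of 4.37, 127 and 306 in Akt-MACs 1, 2 and 3 (limma adjusted p = 0.0115). Spi1, the gene of Pu.1, was at 0 in all MACs and at 11.4, 491 and 1150.5 (limma adjusted p = 0.00896). Csf1r, the receptor of macrophage colony-stimulating factor, was below 1 in each MAC library and reached 13.46, 349 and 1161 (limma adjusted p = 0.0163). The same order, lowest in Akt-MAC 1 and highest in Akt-MAC 3, held for all 3 of these genes.

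The genes of mature macrophages were far higher. Lyz2, lysozyme, had an FPKM of 3.02, 0 and 14.3 in MACs and of 708, 5939 and 21124 in Akt-MACs (log2 fold change 10.14, SE 2.45, limma adjusted p = 0.0275), though reads may be shared with its close copy Lyz1. Adgre1, which encodes F4/80, rose from 0 in all MACs to 56.6, 1648 and 4105 (limma adjusted p = 0.00235). Among scavenger receptors and secreted proteins, Marco was at 69.1, 2253 and 5714 and Cd5l at 33.0, 2967 and 9098, both listed at 0 in all MACs (limma adjusted p = 0.00248 and 0.00366). Akt-MAC 1 held little of these transcripts, but for Adgre1, Marco and Cd5l still more than any MAC library.

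Complement C1q, which macrophages make, is built from 3 chains, and the transcripts of all 3 were listed at 0 in MACs. C1qa had an FPKM of 31.0, 465 and 1165 in Akt-MACs, C1qb of 54.8, 1154 and 2925, and C1qc of 49.4, 1114 and 2985 (limma adjusted p = 0.0111, 0.00978 and 0.00896). In every Akt-MAC library C1qb and C1qc were close to each other and C1qa was lower. The signalling adaptors of activating Fc and Trem receptors behaved alike, with Tyrobp at 61.0, 1561 and 4566 and Fcer1g at 67.8, 1540 and 3589 (limma adjusted p = 0.00876 and 0.00638), both at 0 in MACs.

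Of the 5 tested markers that were not called, Spp1 was high in both groups, at 25048, 8304 and 13431 in MACs and 23285, 9326 and 8843 in Akt-MACs. Gpnmb was likewise present in MACs at 212 to 1238, and Cd53, Coro1a and Siglec1 had log2 fold changes of 4.01, 4.97 and 3.26 with a spread too large for a call. The transcripts of Cd68 and Clec7a were not matched to a symbol in the files.

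**Figure D2:**
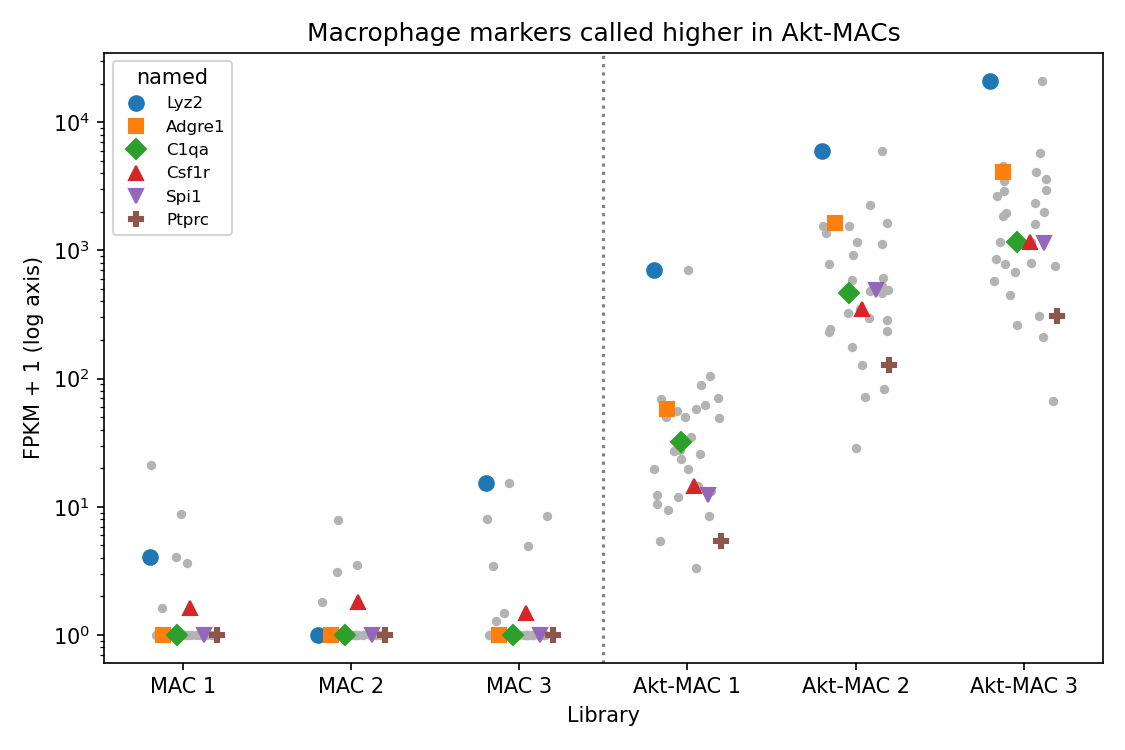
FPKM + 1 (log axis) of the 28 called macrophage markers by library, 1 grey point per gene with 6 named genes also in colour. Points at 1 are genes listed at 0. Ptprc, for example, is at 0 in the 3 MACs and at 4.37, 127 and 306 in Akt-MACs 1 to 3.

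The amount of macrophage transcripts therefore differed more between Akt-MAC libraries than between Akt-MAC 1 and the MACs. Without Spp1, the summed FPKM of the list was 1286, 255 and 797 in MACs and 2239, 26624 and 78157 in Akt-MACs, that is 0.0683%, 0.0151% and 0.0429% against 0.113%, 1.46% and 3.64% of each library. These sums include Gpnmb, which MACs also held, so they do not show how far the other markers rose in Akt-MAC 1. The mean log2(FPKM + 1) over the list, Spp1 included, was 1.23, 1.03 and 1.29 in MACs and 4.84, 8.48 and 9.84 in Akt-MACs. All 28 called markers were lowest in Akt-MAC 1 and highest in Akt-MAC 3. The ratio of Akt-MAC 3 to Akt-MAC 2 lay in a narrow range, from 2.10 to 3.83 with a median of 2.62, while that of Akt-MAC 2 to Akt-MAC 1 ranged from 2.21 to 43.2 with a median of 21.6. In bulk RNA, fewer cells of a type and less RNA per cell cannot be told apart.

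The number of markers called moved with single libraries more than their fold changes did. Without Akt-MAC 2, 9 of the 33 were called with a median log2 fold change of 6.65, without Akt-MAC 3 13 with a median of 5.90, and without MAC 2 18 with a median of 7.18, as in all libraries. With Akt-MAC 1 as the only Akt-MAC library, an alternative added after the data were seen, the median was 3.73. There 0 were called, but this lone library is assumed to vary as the other groups do. These medians depend on the pseudocount, since most of the markers were at 0 in MACs. With the 6 libraries alone, 0 were called.

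The order of the Akt-MAC libraries reached beyond the list. Of the 435 genes called higher, 307 (70.6%) were lowest in Akt-MAC 1 and highest in Akt-MAC 3, an order that 18.9% of all genes tested had. These 307 include the 28 called macrophage markers. The median log2 distance of the 435 from the MAC mean was 1.87 in Akt-MAC 1, 4.34 in Akt-MAC 2 and 4.78 in Akt-MAC 3, and 183 of them were listed at 0 in every MAC library. Among the 42 genes that fell, 13 (31.0%) were nearest to the MACs in Akt-MAC 1 and farthest in Akt-MAC 3, against 22.5% of all genes, and the medians were -1.98, -2.08 and -2.48. Both sets were selected on these same libraries, and genes at 0 in every MAC passed the filter only through the Akt-MACs. The shares of all genes are therefore no like comparison, and the orders only describe the sets.

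Pu.1 binds purine-rich sites with a GAGGAA core, and its gene rose with the macrophage markers. Promoter windows of RefSeq (build GRCm38.p6, 250 bases before to 50 after the start of each gene) were searched for GAGGAA and for the longer GAGGAAGT on both strands. A window with GAGGAA was found for 157 of the 331 genes called higher that had one (47.4%), for 7 of 28 called lower (25.0%) and for 3482 of 11343 genes tested (30.7%). For GAGGAAGT the shares were 13.0%, 0% and 3.7%. Of the 28 called macrophage markers 20 had a window, 14 of them with GAGGAA (70.0%) and 2 with GAGGAAGT. The windows below are those of the 4 called markers of highest FPKM in Akt-MACs that hold GAGGAA, and of Ctss, the other marker with GAGGAAGT beside C1qc. Capitals mark GAGGAA or its reverse complement TTCCTC, and coordinates are those of GRCm38.p6.
Marco (chr1:120504975-120505274, minus strand): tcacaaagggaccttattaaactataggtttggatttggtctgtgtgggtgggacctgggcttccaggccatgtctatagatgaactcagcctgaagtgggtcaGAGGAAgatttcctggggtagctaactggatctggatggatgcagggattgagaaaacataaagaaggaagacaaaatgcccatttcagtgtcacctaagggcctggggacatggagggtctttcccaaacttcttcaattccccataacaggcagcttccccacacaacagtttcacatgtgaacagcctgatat
Laptm5 (chr4:130913066-130913365, plus strand): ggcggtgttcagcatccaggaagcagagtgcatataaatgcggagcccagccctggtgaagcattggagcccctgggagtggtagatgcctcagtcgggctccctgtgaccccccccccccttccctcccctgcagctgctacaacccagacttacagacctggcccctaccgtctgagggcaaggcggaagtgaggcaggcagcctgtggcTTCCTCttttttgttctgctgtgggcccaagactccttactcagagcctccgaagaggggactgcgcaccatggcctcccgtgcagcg
C1qc (chr4:136892865-136893164, minus strand): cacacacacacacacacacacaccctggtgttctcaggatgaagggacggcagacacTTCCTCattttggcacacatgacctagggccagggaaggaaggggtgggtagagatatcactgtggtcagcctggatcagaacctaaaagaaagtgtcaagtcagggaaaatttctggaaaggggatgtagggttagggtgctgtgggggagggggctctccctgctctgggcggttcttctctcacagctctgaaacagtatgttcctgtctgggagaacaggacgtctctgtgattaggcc
C1qb (chr4:136886151-136886450, minus strand): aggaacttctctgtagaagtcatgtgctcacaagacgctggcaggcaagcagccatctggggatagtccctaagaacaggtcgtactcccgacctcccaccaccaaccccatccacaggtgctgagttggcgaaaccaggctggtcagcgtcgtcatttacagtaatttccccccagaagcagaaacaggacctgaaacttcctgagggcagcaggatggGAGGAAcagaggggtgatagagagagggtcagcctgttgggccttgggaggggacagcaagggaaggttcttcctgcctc
Ctss (chr3:95526536-95526835, plus strand): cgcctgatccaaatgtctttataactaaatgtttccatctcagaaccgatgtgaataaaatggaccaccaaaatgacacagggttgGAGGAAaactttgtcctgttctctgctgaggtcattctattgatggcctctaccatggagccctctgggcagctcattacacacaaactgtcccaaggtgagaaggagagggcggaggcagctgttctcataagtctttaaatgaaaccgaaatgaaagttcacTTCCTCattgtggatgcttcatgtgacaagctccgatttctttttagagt
A match is a description of the letters in these windows, and binding was not measured here. The genes called higher were selected on these same libraries and include the macrophage markers. The shares only describe these sets, and a role of Pu.1 was not tested. Tyrobp, Adgre1, C1qa and Spi1 had no entry.

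Of 48 genes of the Akt and PI3K pathway tested, 2 were called higher, against 2.96% of all genes, and 1 lower, against 0.286%, with a median log2 fold change of -0.03. Without Akt-MAC 2 the counts were 0 and 0, and without Akt-MAC 3, MAC 1 or MAC 2 they were 1 and 0. Both genes that rose are known from blood cells. Inpp5d, the lipid phosphatase SHIP1, was at 0 in MACs and at 3.35, 79.8 and 209 in Akt-MACs (limma adjusted p = 0.00759), and Pik3cg, the PI3K subunit that acts behind chemokine receptors, was at 0 and at 1.30, 43.1 and 112 (limma adjusted p = 0.0255). Both followed the order of the macrophage markers.

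Trib2, a pseudokinase that promotes Akt activation and represses Foxo, was the member that fell, from 315, 488 and 167 in MACs to 81.6, 98.1 and 34.9 in Akt-MACs (log2 fold change -2.16, SE 0.56, limma adjusted p = 0.0402). The groups did not overlap. Foxo1, Foxo3 and Foxo4 had log2 fold changes of -0.29, -0.05 and -0.24, none of them called. Irs1, an adaptor of insulin and Igf receptors, was at 39.7, 42.3 and 30.1 in MACs and 27.4, 10.8 and 11.7 in Akt-MACs (log2 fold change -1.23, not called).

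Foxo target genes are those commonly given as direct targets of Foxo factors, which Akt keeps out of the nucleus. The list does not separate targets by the direction of their regulation. Of 40 tested, 2 were called higher, against 2.96% of all genes, and 0 lower, with a median of 0.15 beside 0.11 over all genes. The count was 0 without Akt-MAC 2 and 1 without Akt-MAC 3, MAC 1 or MAC 2. Il7r, a cytokine receptor of lymphocytes, was at 0 in MACs and at 1.58, 22.5 and 25.0 in Akt-MACs. Cat, catalase, was at 336, 327 and 314 in MACs and at 434, 891 and 1159 in Akt-MACs (log2 fold change 1.23, SE 0.30, limma adjusted p = 0.0276). Pik3ip1, Sesn3 and Klf4 had log2 fold changes of -0.82, -1.01 and -1.52 with overlapping groups.

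The processes that Akt is known to favour showed no called genes in most lists. Glycolysis and lactate genes had 0 of 34 called in limma (2 before adjustment at a p below 0.05 past the fold) and a median of 0.20. Ndrg1, a stress-induced gene of that list, was at 61.4, 60.2 and 221 in MACs and at 846, 1362 and 812 in Akt-MACs (log2 fold change 3.37, limma adjusted p = 0.0712), and Hk2, hexokinase, was at 53.2, 20.8 and 34.7 and at 54.6, 59.4 and 119. In both of these genes every Akt-MAC library was above every MAC library. Sterol and fatty acid synthesis had 0 of 40 called (1 unadjusted) with a median of -0.19, DNA replication and mitosis 0 of 50 (0 unadjusted) with a median of -0.13, and cell cycle inhibitors and p53 targets 0 of 30 (0 unadjusted) with a median of -0.22. A count of 0 does not show that these genes were alike in the groups.

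Of 29 tested genes of the amino acid and stress response, 1 was called higher, against 2.96% of all genes, and 0 lower. It was Atf3, a factor induced by stress, at 9.71, 23.1 and 85.3 in MACs and 594, 264 and 333 in Akt-MACs (log2 fold change 3.74, SE 0.93, limma adjusted p = 0.0325). Unlike the macrophage markers Atf3 was highest in Akt-MAC 1. The count of this list was 0 without Akt-MAC 1, 2 or 3 and without MAC 1 or MAC 2. Tgf-beta target genes had 0 of 38 called in limma (4 unadjusted) and a median of 0.39.

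Chemokines and inflammatory genes were the pathway list with the most calls, 6 of 41 higher, against 2.96% of all genes, and 0 lower, with a median of 1.46. They were Ccl6, Ccl3, Ccl4 and Ccl17, which attract leukocytes, the cytokine Tnf and the gelatinase Mmp9. Ccl6 was at 0, 1.43 and 0 in MACs and at 108, 797 and 2426 in Akt-MACs, and Ccl3 was at 0 in MACs and at 17.0, 283 and 635. Ccl17 differed from this order, at 0 in MACs and at 6.67, 3.88 and 5.84 in Akt-MACs (limma adjusted p = 4.2e-06). It was also at 0 in all RACVEC and Akt-RACVEC libraries, which add no spread to the pooled estimate, so its small p is no measure of strength. The count was 1 without Akt-MAC 2, 2 without Akt-MAC 3, 3 without MAC 1 and 2 without MAC 2. Interferon-induced genes had 1 of 43 called higher, against 2.96% of all genes, with a median of 0.57. The gene was Oas1a, at 27.1, 1.97 and 1.29 in MACs and at 15.2, 95.9 and 146 in Akt-MACs, so the groups overlapped. The interferon count was 0 without Akt-MAC 2, Akt-MAC 3, MAC 2 or MAC 3 and 4 without Akt-MAC 1.

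**Figure D3:**
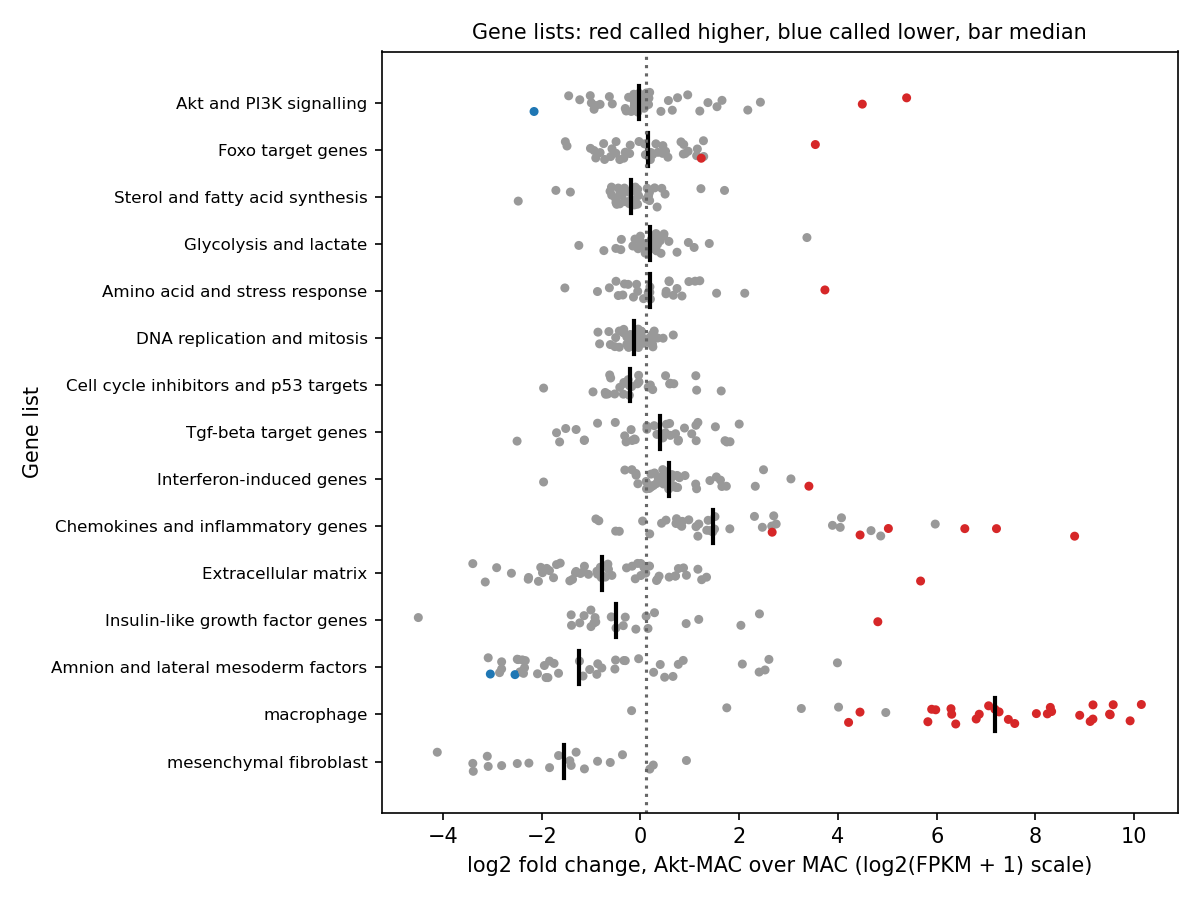
Log2 fold change of Akt-MAC over MAC on the log2(FPKM + 1) scale for each tested member of the lists shown, red where called higher, blue where called lower and grey where not called, with the median of each list as a bar and that of all genes as a dotted line. The macrophage list stands at a median of 7.18, and the lists of Akt signalling and Foxo targets lie near 0.

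Genes of the mesenchyme had mostly lower values in Akt-MACs, and few passed the test. Of 20 mesenchymal fibroblast markers, 17 had negative log2 fold changes with a median of -1.55, and 0 were called in limma (5 before adjustment). Pdgfra, the receptor that marks many mesenchymal cells, was at 279, 473 and 96.0 in MACs and at 41.5, 4.04 and 10.6 in Akt-MACs (log2 fold change -4.12, SE 1.77, limma adjusted p = 0.262). Prrx1, a factor of limb and lateral mesenchyme, was at 881, 1519 and 497 in MACs and at 446, 167 and 48.6 in Akt-MACs. In both genes the groups did not overlap, and Akt-MAC 1 lay nearest to the MACs.

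Mesenchymal transcripts were present in all 6 libraries, though they do not mark amniotic cells in particular. Vim, the intermediate filament of mesenchymal cells, was at 7367 to 12813 in MACs and 4829 to 16214 in Akt-MACs. The summed FPKM of the mesenchymal list was 40291, 37706 and 23705 in MACs and 30197, 10407 and 11858 in Akt-MACs, so that the 2 libraries with most macrophage transcripts had the fewest mesenchymal ones, 0.570% and 0.552% of their summed FPKM. Whether the first moved the second was not tested.

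Among 43 amnion and lateral mesoderm factors 0 were called higher and 2 lower, beside 0.286% of all genes, with a median of -1.24. The lower count was 0 without Akt-MAC 2 or MAC 1, 1 without Akt-MAC 3, 3 without Akt-MAC 1 and 4 without MAC 3, and 2 were called higher without Akt-MAC 1 and 1 without MAC 1. Snai1 was at 180, 193 and 53.04 in MACs and at 29.7, 9.27 and 29.5 in Akt-MACs (log2 fold change -2.54, SE 0.59, limma adjusted p = 0.0226). Six2, which marks progenitors in kidney and limb, was at 37.6, 2.16 and 10.3 in MACs and at 1.46, 0 and 0 in Akt-MACs (limma adjusted p = 0.0231). Gata4, a factor of heart and mesothelium, was at 0, 0 and 1.18 in MACs and at 0, 24.6 and 340 in Akt-MACs (limma adjusted p = 0.212).

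Of the 42 genes called lower, 36 had groups that did not overlap, and 5 were at 0 in all Akt-MACs. Among all genes 4.31% had every Akt-MAC library below every MAC library. The 42 were selected on these same libraries, so their larger share follows from the selection and adds nothing to the calls. Among the 36, Scara5, Nkx3-2 and Cdh13 had the most negative log2 fold changes. Scara5, a ferritin receptor of stromal cells (mm9 chr14:66285240-66383663), was at 57.2, 190 and 124 in MACs and at 14.8, 2.48 and 0.84 in Akt-MACs (log2 fold change -4.58, SE 1.01, limma adjusted p = 0.0167). Nkx3-2, a factor of cartilage and gut mesoderm (mm9 chr5:42152404-42155735), was at 36.9, 3.21 and 116 in MACs and at 1.95, 0 and 0 in Akt-MACs (log2 fold change -4.21, SE 0.88, limma adjusted p = 0.0119). Cdh13 (mm9 chr8:120807633-121848821) was at 373, 269 and 683 in MACs and at 112, 39.3 and 5.60 in Akt-MACs (log2 fold change -3.72, SE 0.78, limma adjusted p = 0.0121). Positions are those of GENCODE M1. Without Akt-MAC 2 none of the 3 was called, without Akt-MAC 3 Scara5 and Cdh13 were not, and without MAC 2 Scara5 was not.

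Slc27a3, a fatty acid transport protein, had a log2 fold change of -3.60, Capn6, a calpain of embryonic muscle, of -3.34, and Kazald1, an Igf-binding protein relative, of -3.21. Capn6 was at 34.4, 40.1 and 130 in MACs and at 4.87, 6.24 and 3.34 in Akt-MACs, and was not called without Akt-MAC 2, Akt-MAC 3, MAC 2 or MAC 3. Agtr2, the angiotensin receptor of fetal mesenchyme, was also called lower and had the most negative log2 fold change of the 42, -5.47, but its groups overlapped, at 537, 1363 and 26.3 in MACs and 54.9, 3.11 and 0 in Akt-MACs. Rpl29 and Rps2, ribosomal genes with near-identical copies elsewhere in the genome, were also called lower and are uncertain for that reason.

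On the log2(FPKM + 1) scale, the genes with the largest SD within Akt-MACs, among those with a mean FPKM of at least 10, were Upk1b, Upk3b, Adamdec1, Scg2 and Apod. Adamdec1, a metalloprotease of stroma and macrophages, was at 1.54, 0 and 0 in MACs and at 3568, 461 and 2.71 in Akt-MACs (log2 fold change 7.07, SE 1.44, limma adjusted p = 0.0104), the reverse of the macrophage order. Within MACs those with the largest SD on that scale were Adcyap1, Car3, Dbh, Cfd and Gal, each far higher in 1 library than in the other MACs. Dbh, the enzyme that makes noradrenaline, was at 0, 0 and 1058, and Cfd, the adipocyte protease adipsin, at 55.5, 2807 and 0. None of the 5 was called.

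Extracellular matrix genes had a median of -0.79 over 53 tested, with 0 called lower and 1 higher in limma, against 0.286% and 2.96% of all genes. The exception was Fmod, fibromodulin, a small proteoglycan that binds collagen, at 1.71, 3.36 and 4.42 in MACs and at 63.7, 1703 and 76.2 in Akt-MACs (log2 fold change 5.67, SE 1.01, limma adjusted p = 0.00566). Of 23 insulin-like growth factor genes, 1 was called higher, against 2.96% of all genes, and 0 lower, with a median of -0.50. The higher count was 0 without Akt-MAC 2, Akt-MAC 3, MAC 1 or MAC 2, and 1 gene was called lower without MAC 3. Igfbp2, which binds Igf1 and Igf2, was at 90.7, 12.3 and 137 in MACs and at 509, 4378 and 1654 in Akt-MACs (log2 fold change 4.81, SE 1.19, limma adjusted p = 0.0309). Both Fmod and Igfbp2 were highest in Akt-MAC 2 and so did not follow the macrophage order. Igf2, a fetal growth factor, was at 633, 1041 and 258 in MACs and at 42.4, 7.87 and 37.4 in Akt-MACs (log2 fold change -4.50, limma adjusted p = 0.304).

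Of 30 endothelial genes tested, 2 (Fli1 and Tal1) were called higher, against 2.96% of all genes, and 0 lower, with log2 fold changes from -2.92 to 4.90, a median of 0.21 and 9 members past the fold before adjustment. The higher count was 0 without Akt-MAC 2, 1 without Akt-MAC 3, MAC 2 or MAC 3, and 3 without MAC 1. Without Akt-MAC 1 it was 5, with 1 called lower. Cdh5, which encodes VE-cadherin, was at 0.82, 1.87 and 1.27 in MACs and at 0.66, 7.36 and 1.46 in Akt-MACs, and Kdr, the main Vegf receptor, at 1.99, 2.84 and 11.8 and at 14.3, 8.76 and 3.15. Apln, a peptide of angiogenic endothelium, was at 225, 84.5 and 44.2 in MACs and at 16.6, 37.9 and 1.98 in Akt-MACs (limma adjusted p = 0.349). Both called genes, Fli1 and Tal1, are also used by blood cells. Fli1 was at 0, 1.61 and 0.65 in MACs and at 2.36, 30.2 and 84.4 in Akt-MACs (log2 fold change 3.67, SE 0.73, limma adjusted p = 0.00967). Tal1 was at 0 in MACs and at 0.55, 8.22 and 26.5 in Akt-MACs (limma adjusted p = 0.0311). The 2 genes were ordered as the macrophage markers were.

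Few markers of other cell types were called, though several differed widely among libraries of 1 group. In limma 0 of 21 neural and glial, 20 epithelial, 17 smooth muscle, 10 skeletal and heart muscle, 5 trophoblast and 11 mesothelial markers tested were called, and before adjustment the counts were 1, 0, 0, 0, 0 and 2. Sox10, a factor of Schwann cells and their precursors, was at 68.6, 0.88 and 670 in MACs and at 848, 222 and 0.44 in Akt-MACs. Upk1b and Upk3b, uroplakins of urothelium and mesothelium, were at 2851 and 1886 in Akt-MAC 3, at 86.0 and 73.7 in Akt-MAC 2 and at 1.25 and 0.96 in Akt-MAC 1, with 0 to 47.9 in MACs. Of 9 other blood cell markers tested 1 was called higher, against 2.96% of all genes. It was Pf4, a platelet chemokine, at 113, 675 and 213 in Akt-MACs and at 0, 0 and 2.84 in MACs. The count of this list was 0 without Akt-MAC 2, Akt-MAC 3, MAC 1 or MAC 2 and 3 without Akt-MAC 1. Cited1 was the 1 of 10 yolk sac and liver genes called higher, against the same share. It was at 0, 0 and 8.77 in MACs and at 18.7, 174 and 81.8 in Akt-MACs.

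**Figure D4:**
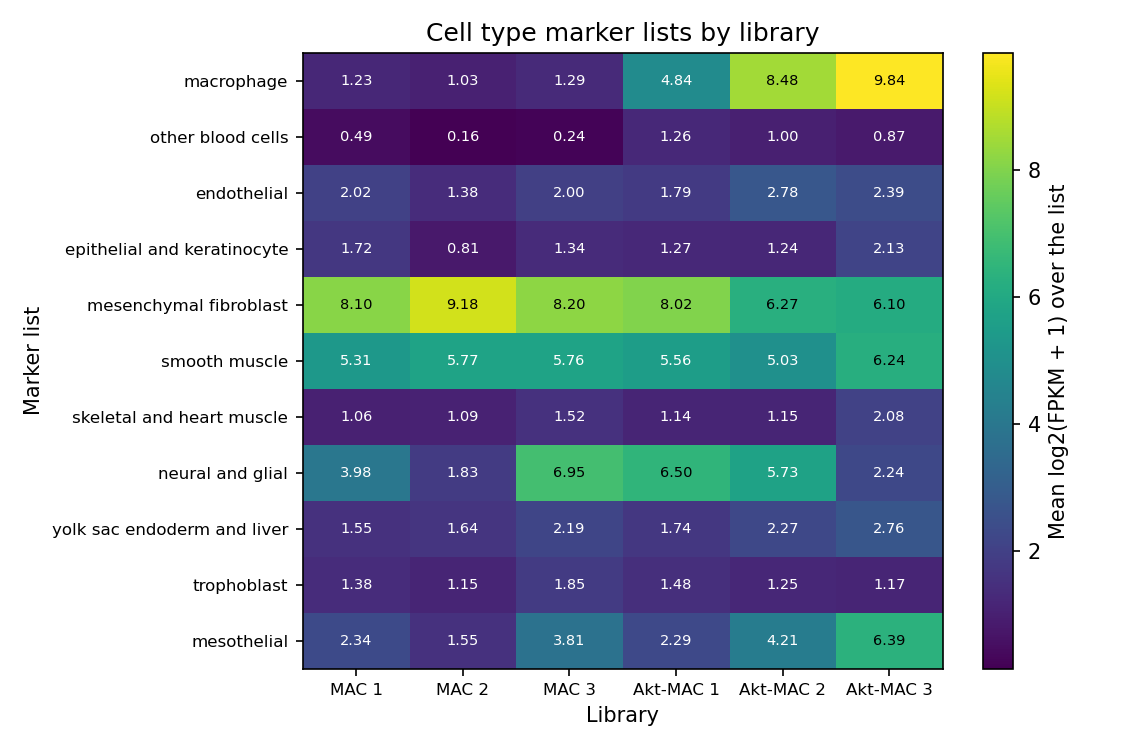
Mean log2(FPKM + 1) over the measured members of each cell type marker list (rows) in each library (columns), printed in the cells and shown by colour. The macrophage row rises from 1.23, 1.03 and 1.29 in MACs to 4.84, 8.48 and 9.84 in Akt-MACs, while the neural and glial row varies from 1.83 to 6.95 within MACs.

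Akt was also given to RACVECs, and the Akt effects with and without the Ets factors were compared in 1 fit. RACVECs also differ from MACs by the medium, the Tgf-beta inhibitor and the time of conversion. The Ets factors cannot be told apart from these. These comparisons share no library. In Akt-RACVECs against RACVECs 14 of the 14680 genes were called higher (0.0954%) and 3 lower (0.0204%), and of the 435 and 42 genes called in Akt-MACs 0 were called in the same direction. Trim14, called higher in Akt-MACs, was 1 of the 3 called lower in Akt-RACVECs. The median log2 fold change of the 435 was 3.63 in MACs and 0.00 in RACVECs, and 136 of them were listed at 0 in all 6 RACVEC and Akt-RACVEC libraries.

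The difference of the Akt effects was itself called for 18 genes (0.123%), 17 more positive in MACs and 1 more negative (1526 before adjustment). All 17 were also called higher in Akt-MACs. For 10 of the 18, all RACVEC and Akt-RACVEC libraries were at 0, so their difference equals the Akt-MAC fold change and adds nothing to that call. Fcrls, an Fc receptor-like gene of macrophages and microglia, was the gene among them with most transcripts, at 0 in MACs and at 30.4, 1009 and 1925 in Akt-MACs, and its mean was 0 in RACVECs and 0.77 in Akt-RACVECs (limma adjusted p of the difference = 0.0233). Cntnap2 and Sez6, adhesion and surface proteins of neurons, were at 81.8, 474 and 51.5 and at 159, 431 and 29.9 in Akt-MACs, below 1 in MACs and are 2 of these 10. Iapp, the islet amyloid peptide, and Pianp were at 31.1, 12.2 and 46.9 and at 36.0, 21.1 and 17.3 in Akt-MACs and at 0 in MACs, and in neither was Akt-MAC 1 the lowest Akt-MAC library.

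Trim14, an antiviral adaptor, was at 3.31, 1.59 and 5.19 in MACs and at 14.5, 54.3 and 87.5 in Akt-MACs, with a mean of 9.44 in RACVECs and 0 in Akt-RACVECs (difference 6.69, SE 0.88, limma adjusted p = 0.000866). Fam171a2 was the reverse, at 34.5, 48.1 and 43.3 in MACs and at 31.5, 12.5 and 8.76 in Akt-MACs, while its mean was 26.8 in RACVECs and 195 in Akt-RACVECs (difference -4.26, limma adjusted p = 0.0381). The count of 18 was 484 without Akt-MAC 1, 88 without Akt-MAC 3, 30 without MAC 1 and 61 without MAC 3, and 0 when the MAC, Akt-MAC, RACVEC and Akt-RACVEC libraries were fitted alone. Akt-MAC 1 as the only Akt-MAC library gave 121, of which 15 were among the 18.

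**Figure D5:**
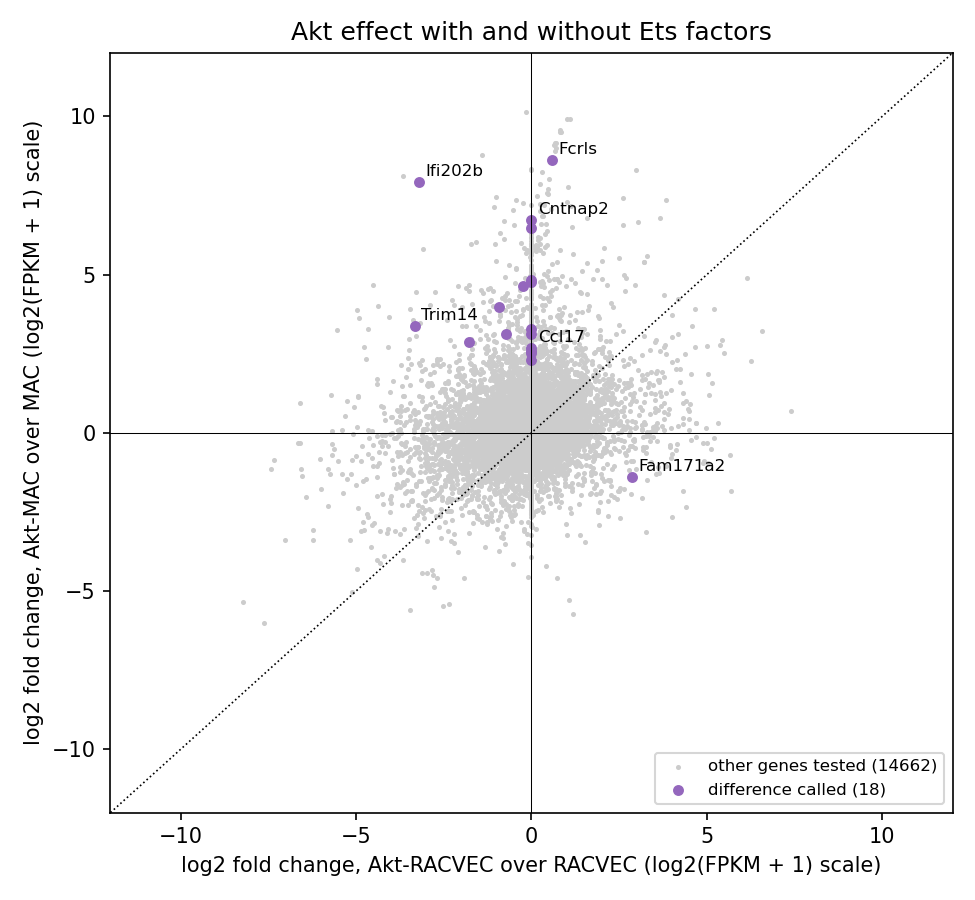
Log2 fold change of Akt-MAC over MAC against that of Akt-RACVEC over RACVEC on the log2(FPKM + 1) scale, 1 point per gene tested, with the line of equal effects dotted. The 18 genes whose effects differed (purple) lie to the left of the line except Fam171a2, at -1.39 in MACs and 2.87 in RACVECs.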

How the data were processed

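The 3 MAC and 3 Akt-MAC libraries of a series of 24 (8 groups of 3) are described. Libraries were prepared with the TruSeq kit and read as 51 bp paired ends. The authors mapped the reads to mm9 with TopHat, estimated FPKM per RefSeq transcript in Cufflinks (upper-quartile scaling, bias correction) and deposited these values to 2 decimals. Tool versions and strand handling are not given in the sources used here, so overlapping, antisense and near-identical genes may share reads. Depth is unknown from FPKM, and no counting interval is given.

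Of 27583 transcripts, 26934 received a symbol from a RefSeq table (GRCm38.p6, which also gave promoter windows) and 649 stayed under their own name. Values were summed per gene and log2(FPKM + 1) was fitted in limma 3.58.1 (R 4.3.3), all 24 libraries in 1 model with a variance trend and 16 residual degrees of freedom. Tests were two-sided and adjusted by Benjamini-Hochberg over 14680 genes, those whose mean FPKM in the 6 libraries reached 1. Fold changes are on the log2(FPKM + 1) scale, which understates low genes. A p rests on the spread between libraries of a group, pooled over all 8 groups. These include directly purified liver ECs, so it is not the spread between amniotic cultures alone. The code was tested on simulated data. Other software was Python 3.11.15, pandas 2.3.3, numpy 2.4.6, matplotlib 3.10.9 and scipy 1.17.1. No pair of libraries had identical values.

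The comparison, gene lists and genes were chosen with earlier results of these data known. The named genes were the 12 in each direction with the largest called change, no overlap of groups and a mean FPKM of at least 10 in the higher group. They also included Akt and the transduced factors, called or leading members of each list, 6 macrophage genes per library, up to 5 genes of each direction with the largest called difference of the Akt effects, and the 5 genes of largest SD of log2(FPKM + 1) in each group. Other genes were chosen after their values were seen. Alternatives were pseudocounts of 0.1 and 10, no filter, a floor of 10 on the mean FPKM, the compared groups fitted alone with or without a replicate block, quality weights, median scaling, unsummed transcripts, each library left out and the criterion of the paper's methods. Positions are those of GENCODE M1 on mm9.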

Additional observations from a re-analysis of the deposited data

Results flagged for a closer look

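The effects of Akt in MACs and in RACVECs differed for 18 genes by the test of the difference itself in limma, which is why the 6 described by name are listed here. The difference of the log2 effects, MACs minus RACVECs, was 11.12 for Ifi202b, 8.05 for Fcrls, 6.73 for Cntnap2, 6.69 for Trim14, 6.47 for Sez6 and -4.26 for Fam171a2. Cntnap2 and Sez6 were at 0 in all RACVEC and Akt-RACVEC libraries, so their values are those of the Akt-MAC fold change. Ifi202b, an interferon-induced gene of a family of close paralogues, was at 0 in MACs and at 317, 211 and 212 in Akt-MACs, and at 0, 0 and 774 in RACVECs and 0 in all Akt-RACVECs, so that its difference in RACVECs came from RACVEC 3 alone.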

How the results depend on the processing

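The counts of 435 genes called higher, 42 lower and 18 with different Akt effects depended on the estimate of spread and on single libraries. With only the groups compared they were 1, 0 and 0. With library quality weights they were 794, 153 and 104, with a mean FPKM of at least 10 they were 284, 19 and 5, and with Akt-MAC 1 as the only Akt-MAC library, an alternative added after the data were seen that assumes the lone library to vary as other groups do, 142, 11 and 121. Without a filter 34 genes differed in Akt effect, and the criterion of the paper's methods called 123 higher and 47 lower, of which 41 and 9 were shared. Leaving out 1 library at a time gave 92 to 746 higher, 14 to 117 lower and 12 to 484 different. Of 68 named genes that were called, 0 changed direction under any alternative, and 21 were still called without Akt-MAC 2 and 33 without Akt-MAC 3. The cause of these changes was not tested. FPKM carries no depth, so the precision of low values is unknown.

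Whether same-numbered Akt-MACs and MACs came from the same isolate is not given in the sources used here. The deviations of same-numbered Akt-MACs and MACs from their group means correlated at -0.001, -0.133 and -0.214. Those of other numbers correlated at -0.139 to 0.225. Such correlations cannot decide whether the samples were paired, since other differences between libraries also enter them. A fit of only the groups compared with a replicate block left 2 residual degrees of freedom and called 0 higher, 0 lower and 0 different in limma (759 higher and 242 lower before adjustment).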

Other observations

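Genes of the forebrain and of astrocytes were called higher in Akt-MACs and were highest in Akt-MAC 2, and were chosen after their values were seen. Pax6, a factor of eye and forebrain, was at 0 in MACs and at 4.53, 31.8 and 2.20 in Akt-MACs (limma adjusted p = 0.00445), and Otx1 at 0 and at 3.29, 42.1 and 2.73 (limma adjusted p = 0.0200). Slc1a2, the main glutamate transporter of astrocytes, was at 0.29, 0.21 and 3.22 in MACs and at 38.1, 349 and 7.99 in Akt-MACs (log2 fold change 4.73, SE 0.81, limma adjusted p = 0.00447). Mlc1, another astrocyte gene, was at 4.63, 0 and 4.48 and at 59.7, 442 and 7.85.

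Among genes of resident macrophages, Clec4f, a marker of Kupffer cells, was at 0 in all 6 libraries. Vsig4 was at 0 in MACs and Akt-MAC 1 and at 10.6 and 1.78 in Akt-MAC 2 and 3. Spic, a factor of red pulp macrophages, was at 0 in MACs and Akt-MAC 1 and at 36.2 and 41.3 in Akt-MAC 2 and 3 (limma adjusted p = 0.0641). Lipa, the lysosomal acid lipase, was at 163, 273 and 380 in MACs and at 565, 1579 and 3485 in Akt-MACs (log2 fold change 2.504, SE 0.48, limma adjusted p = 0.00851).

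Rpl29 and Abhd14a, neighbours on mm9 chromosome 9, were both called lower. Rpl29 (106331785-106333899) was at 257, 548 and 368 in MACs and at 23.1, 22.5 and 183 in Akt-MACs, and Abhd14a (106342382-106350009) at 76.7, 83.3 and 74.6 and at 4.53, 7.36 and 29.9. RACVEC 3 had low values of both, at 173 and 14.5, against 537 and 660 and against 47.5 and 56.6 in RACVECs 1 and 2. The same library was the RACVEC library with Ifi202b, at 774, and was highest of the RACVECs in H2-Q1 and H2-Q2, at 59.6 and 143. In Akt-MACs H2-Q1 was at 46.0, 39.5 and 33.9 and H2-Q2 at 73.0, 49.99 and 89.0, against 1.55 to 6.16 and 1.11 to 6.88 in MACs, and both belong to a family of close copies that may share reads.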
